A study of Homo sapiens with 2 samples.

Results

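The cells described here are OVCAR5 carcinoma cells in which no transcript of KRT19 was counted, and they were compared with cells of the same hashtag pair that held at least 10 KRT19 unique molecular identifiers (UMIs, each a single captured transcript). A cell qualified with at least 500 genes, at least 10000 gene UMIs and at most 20% of UMIs from mitochondrial (MT-) genes. Its hashtag pair was the highest and second highest of 8 hashtags, and the second had to reach at least 5 times the next one plus 1 UMI. Cells with at least 1000 CPM of KRT81, LDHB and S100A9 together were left out (CPM, UMIs of a gene per 1000000 gene UMIs). Of 7804 barcodes, 6997 passed the cell filter, 5956 of these carried a pair, and 114 were left out. Of the remaining 5842 cells, 1081 had 0 KRT19 UMIs (18.5%, exact 95% binomial interval 17.5 to 19.5%), 2671 had 1 to 9, and 2090 had 10 or more.

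OVCAR5 is an established line labelled as ovarian carcinoma, here carrying a reporter that senses interferon gamma (IFNγ) together with the fluorescent marker CFP. All cells came from 1 pool, sequenced as transcripts in 1 library and as hashtags in another. The labels name 18 conditions: cells left unstimulated or given 1, 10 or 100 ng/ml IFNγ, each for 2, 6, 12 or 24 h, plus frozen cells from the 24 h unstimulated and 100 ng/ml arms. No label ties a hashtag or a pair to a condition, so the 18 pairs found are compared by number only, the pool counts as 1 sample, and no p-value is given. Intervals cover counting error only, and cells are not replicates.

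Keratins are intermediate filament proteins of epithelial cells, built from a type I and a type II chain. KRT19 is the smallest type I keratin, lacks most of the tail domain and is common in ductal and other simple epithelia, where KRT8 and KRT18 form the usual filament pair. KRT19 is widely used as a tissue and serum marker of carcinomas.

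The members were chosen by their KRT19 count (chr17:41523617-41528308, minus strand, GRCh38), so its values are a description. In the comparison cells it ran from 149 to 3031 CPM with a median of 551 CPM. A count of 0 in a member of median depth allows up to 98.9 CPM (3 UMIs of its depth), below the lowest comparison cell. In the shallowest member it allows up to 283 CPM, which is above that cell. Just outside the rule, 522 cells had 1 KRT19 UMI and 214 had 9. Over all cells with 1 to 9 UMIs, KRT19 stood at 135 CPM, against 613 CPM in the comparison cells.

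Median depth was 30325 UMIs per member and 30315 per comparison cell, with 5515 and 5514.5 genes detected, and the members' median was the higher in 7 of 18 pairs (ratio 0.928 to 1.10). The median mitochondrial share was 11.5% and 11.6%. Hashtag UMIs did differ: the median was 1496 in members and 1245 in comparison cells, and higher in members in 17 of 18 pairs. The part of hashtag labelling in the results below was not tested.

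All 18 pairs held KRT19-zero cells, with 34 to 96 members and 45 to 212 comparison cells per pair. The lowest share was 13.9% in the pair of hashtags 1 and 3 (interval 10.3 to 18.3%), the median 19.2%, and the highest 24.6% in the pair of hashtags 7 and 8 (20.1 to 29.6%). The intervals of the lowest and the highest pair did not overlap. With each cell thinned to 10000 UMIs, 31.96% of all cells had no KRT19 UMI (30.8 to 33.2%).

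**Figure D1:**
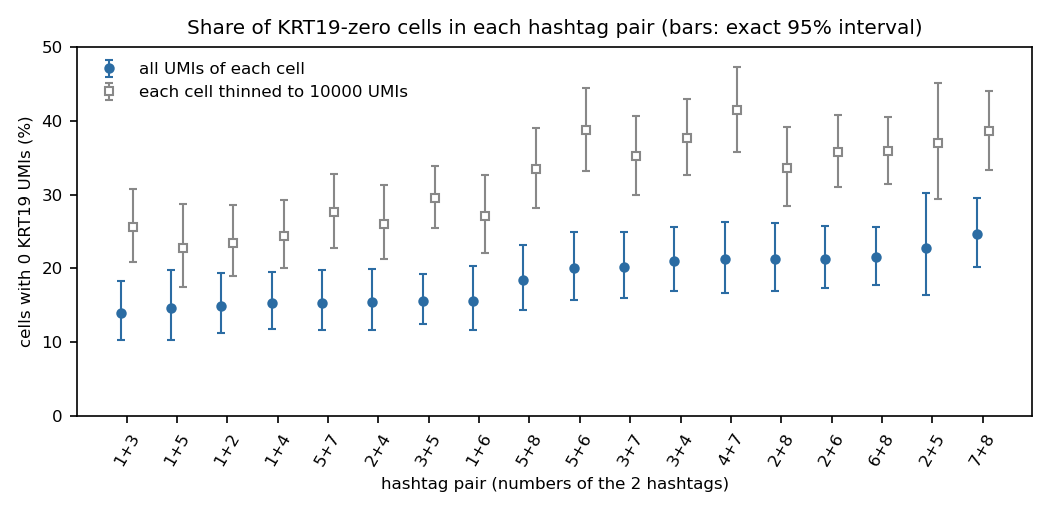
Percent of cells with 0 KRT19 UMIs (y axis) in each of the 18 hashtag pairs (x axis, in order of the unthinned share), with all UMIs (filled circles) and with each cell thinned to 10000 UMIs (open squares); bars are exact 95% binomial intervals. The unthinned share runs from 13.9% to 24.6%, and thinning raises it in every pair.

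The type II keratin KRT8 had a UMI in 100% of members and of comparison cells, and KRT18, its type I partner, likewise. KRT8 ran over the pairs from 813 to 1602 CPM in members (median 1229 CPM) and from 919 to 1482 CPM in comparison cells (median 1181 CPM). Its pooled ratio was 1.02 (95% counting interval 1.00 to 1.03), with 9 pairs higher and 9 lower. KRT18 had a ratio of 1.09 and KRT10 of 1.07, both without a call. KRT7, a type II keratin of glandular epithelia, had a UMI in 92.5% of members. Its ratio was 0.773 (0.756 to 0.790), lower in 15 of 18 pairs, short of the fold used for calls. The keratins with a call were 2 of 7 measured, both type I and both lower: KRT20 (0.412) and KRT23 (0.542). Of 40 markers of T cells, myeloid cells, endothelium, fibroblasts and mesothelium, 20 had 0 UMIs over all members, among them CD3E, TRAC, PTPRC, TYROBP, VWF, CDH5, DCN, LUM, COL1A2 and WT1, where a count of 0 allows up to 0.0888 CPM. A further 15 had at most 1 CPM. The other 5 were common, with a UMI in 69.8% of members for EGFL7, 62.9% for IL7R, 52.4% for CALB2, 48.8% for CD68 and 11.6% for CD14, against 70.2%, 54.9%, 56.3%, 56.5% and 13.8% of comparison cells. The summed T cell list was 1.44-fold higher in members, nearly all of it IL7R (66.6 against 46.4 CPM), and the summed myeloid list stood at 0.814, mostly CD68 (25.3 against 30.1 CPM). The endothelial and mesothelial lists, mostly EGFL7 and CALB2, stood at 1.08 and 1.09, and the marker genes of the cells left out at 1.01.

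Ratios here are Mantel-Haenszel rate ratios over the 18 pairs, members over comparison cells, so that a pair's overall response level does not enter. A gene was called when the ratio reached 1.5-fold and at least 14 of 18 pairs lay in that direction, among 9491 genes with at least 500 UMIs in the compared cells. By this rule 47 genes (0.495% of those compared) were higher and 157 (1.65%) were lower in KRT19-zero cells, KRT19 itself not counted, 2.15% in all. At any fold, 148 genes (1.56%) were higher and 219 (2.31%) lower in 18 of 18 pairs. The median log2 ratio of all genes was 0.02. For 28 genes (0.295%) every pair's level in members lay below every pair's level in comparison cells, and for 4 genes (0.0421%) above.

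MUC5AC, AGR2 and MT1E led the lower genes. MUC5AC, a gel-forming mucin (chr11:1157953-1201138), ran from 0 to 12.3 CPM over the pairs in members (median 2.16 CPM) and from 16.1 to 51.0 CPM in comparison cells (median 36.1 CPM). The 2 groups of pair values did not overlap. MUC5AC was 10.9-fold lower (8.93 to 13.4) and lower in 18 of 18 pairs. Thinned to 10000 UMIs, 2.78% of members and 25.5% of comparison cells had a MUC5AC UMI (5.74% and 46.5% unthinned). In the 114 cells left out, whose median depth was 42320 UMIs, the thinned share was 3.51% (8.77% unthinned). A difference between members and these cells was not tested.

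AGR2, an endoplasmic reticulum disulfide isomerase needed for mucin folding (chr7:16791811-16833433), ran from 0 to 24.4 CPM in members (median 3.64 CPM) and from 6.95 to 103 CPM in comparison cells (median 40.4 CPM). AGR2 was 7.56-fold lower (6.55 to 8.74), and lower in every one of the 18 pairs although the ranges overlapped. The cells left out carried much AGR2, with a UMI in 93.9% of them. PSCA, a surface antigen held by a lipid anchor, was 2.69-fold lower (2.49 to 2.92) in 18 of 18 pairs. S100P, a calcium-binding protein (chr4:6693069-6697170), ran from 4.50 to 33.1 CPM in members (median 10.7 CPM) and from 28.2 to 95.8 CPM in comparison cells (median 45.6 CPM). Its pooled difference was 3.63-fold (3.28 to 4.01), again lower in 18 of 18 pairs.

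MT1E, a metallothionein that binds zinc and copper (chr16:56625475-56627112), ran from 6.62 to 30.9 CPM in members (median 19.3 CPM) and from 73.3 to 192 CPM in comparison cells (median 120 CPM), with no overlap. MT1E was 5.68-fold lower (5.25 to 6.14). Other members of this family had ratios nearer 1 and no call, with MT2A at 0.760, MT1X at 0.721 and MT1F at 0.806. These paralogs share much of their sequence, so the split of reads between them is uncertain.

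FABP4, a fatty acid carrier (chr8:81478419-81483263), varied widely between pairs, from 1.78 to 172 CPM in members and from 6.95 to 317 CPM in comparison cells. Even so it was lower in 18 of 18 pairs and 3.77-fold lower overall (3.55 to 3.99). TNS4, a tensin of focal adhesions, was 4.63-fold lower (3.96 to 5.42), and KRT20, a keratin of gut and urothelium, 2.43-fold lower (2.301 to 2.57), both in 18 of 18 pairs. The Wnt ligand WNT7B was 2.98-fold lower with no overlap of pair values (1.09 to 10.8 against 11.01 to 22.5 CPM). The remaining leading lower genes were AL355312.4, a gene known by a clone name (2.42-fold lower), ZNF114, a zinc finger gene (2.38-fold), and CAVIN2, a protein of caveolar coats (2.35-fold, lower in 15 of 18 pairs). Below the UMI minimum for this ranking, and picked after their values were seen, SCEL, a protein of stratified epithelium, was 7.15-fold lower, and LAD1, a basement membrane filament protein, 4.50-fold lower.

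RSAD2, SAA1 and SAA2 led the higher genes. SAA1, a serum amyloid A protein (chr11:18266174-18269977), ran from 48.9 to 482 CPM over the pairs in members (median 201 CPM) and from 30.9 to 138 CPM in comparison cells (median 68.9 CPM). SAA1 was 3.02-fold higher (2.91 to 3.13), and higher in 18 of 18 pairs with overlapping ranges. SAA2, a near-identical neighbour with which reads may be shared, was 2.76-fold higher (2.61 to 2.92), also in all 18. CFI, the serine protease complement factor I, was 2.07-fold higher (1.88 to 2.29) in 17 of 18 pairs. VCAM1, a cytokine-induced adhesion molecule named after its values were seen, was 3.57-fold higher (3.07 to 4.15) in 17 of 18 pairs, on 792 UMIs.

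RSAD2, the antiviral protein viperin, was 3.10-fold higher (2.81 to 3.42) in 15 of 18 pairs, and the pairs' own ratios ran from 0.437 to 26.5. Its transcripts sat in few cells: the 10% of members with most RSAD2 held 89.7% of them, and 20.1% of members had a UMI (11.9% thinned). HERC5, the ligase that attaches ISG15, was 2.27-fold higher in 15 of 18 pairs, and the 10% of members with most held 95.3% of its UMIs. HLA-DRA, the class II alpha chain, ran from 0.7197 to 344 CPM over the pairs in members and from 1.88 to 171 CPM in comparison cells. HLA-DRA was 1.81-fold higher (1.72 to 1.90) in 15 of 18 pairs. Without the 10% of cells highest in antiviral effectors in each pair, RSAD2, HERC5 and HLA-DRA had no call, at 1.88, 1.63 and 1.79. Of the rest CLDN11, a claudin, was 2.16-fold higher, JAM3, a junctional adhesion molecule, 1.99-fold, and CPA4, a carboxypeptidase, 2.27-fold, each in 18 of 18 pairs. PDE1C, a calmodulin-dependent phosphodiesterase, was 1.84-fold higher and ABCA1, a cholesterol exporter, 1.73-fold. AL713998.1, a gene known by a clone name, was 1.88-fold higher.

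**Figure D2:**
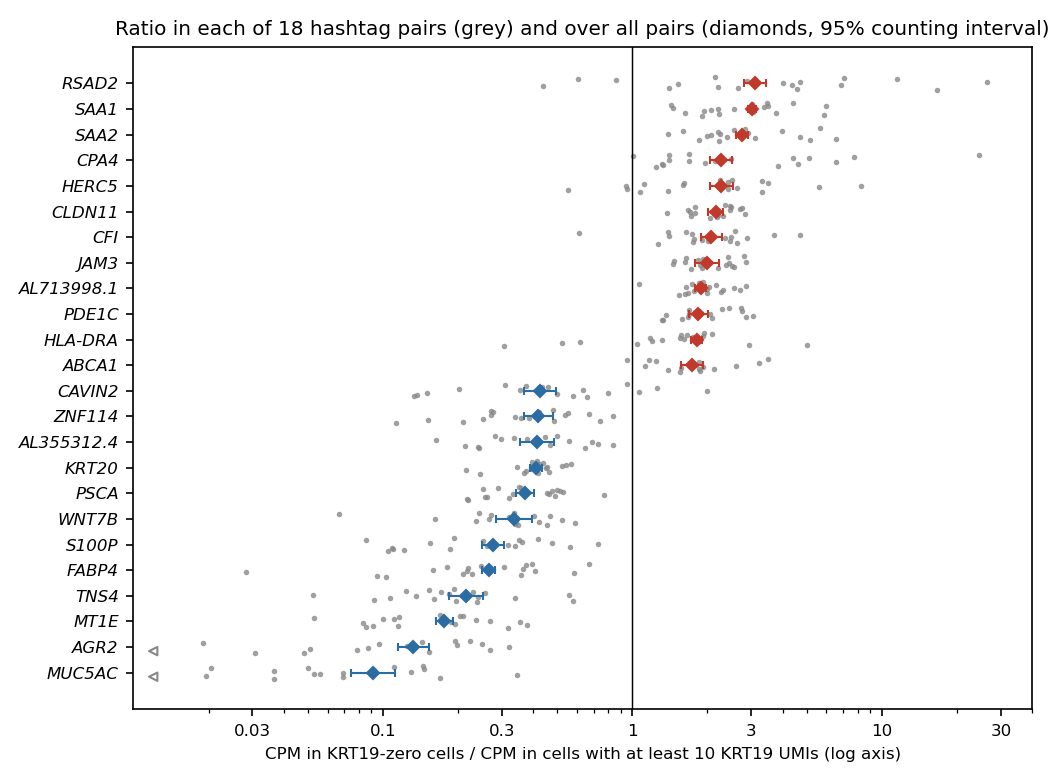
Ratio of CPM in KRT19-zero cells to CPM in cells with at least 10 KRT19 UMIs (log x axis) for the 12 genes with the largest ratio in each direction (y axis). Grey points are single hashtag pairs, open triangles at the left edge are pairs in which members had 0 UMIs, and diamonds are the pooled ratio with its 95% counting interval; MUC5AC lies lowest at 0.0915 and RSAD2 highest at 3.10.

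All 24 of these genes kept their direction when cells were thinned and when only cells with at most 10% MT- UMIs were used. Their calls held in 16 and 10 of the 24, with fewer UMIs per gene, and in 11 of 24 when pairs were split further by chromosome 22 level, described below.

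Promoters of called genes were searched for the letters of 4 motifs, named after the TATA box, AP-1, FOXA and NF-kB. In the 250 bases before the RefSeq start (GRCh38.p14), the letters TATAAA, searched on both strands, were found in 7 of 29 higher genes with an entry (24.1%) and in 8 of 103 lower genes (7.77%). The share was 4.84% of 7599 genes compared and 11.1% of 27305 promoters in the table. The AP-1 letters TGANTCA were found in 4 of 29 higher and 5 of 103 lower genes, against 3.70% of genes compared and 6.60% of all promoters. The FOXA letters TGTTTAC were found in 1 of 29 higher and 0 of 103 lower genes (1.82% of genes compared, 2.98% of all promoters). The NF-kB letters GGGNNTTCC were found in 4 of 29 higher and 5 of 103 lower genes (7.67% and 5.81%). Both were searched on both strands too. The table held 11 of 25 genes looked for, the leading ones and KRT19. A higher gene, CPA4, and a lower gene, S100P, are shown 5′ to 3′ with the motifs in capitals, TATAAA in both (CPA4 also on the other strand, overlapping itself) and TGANTCA in CPA4:
CPA4 (chr7:130292911-130293160, plus strand): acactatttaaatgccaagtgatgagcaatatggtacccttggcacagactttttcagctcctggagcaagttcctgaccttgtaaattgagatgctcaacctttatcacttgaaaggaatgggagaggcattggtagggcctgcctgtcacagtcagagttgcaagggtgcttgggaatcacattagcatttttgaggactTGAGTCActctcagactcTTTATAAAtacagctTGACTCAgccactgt
S100P (chr4:6693628-6693877, plus strand): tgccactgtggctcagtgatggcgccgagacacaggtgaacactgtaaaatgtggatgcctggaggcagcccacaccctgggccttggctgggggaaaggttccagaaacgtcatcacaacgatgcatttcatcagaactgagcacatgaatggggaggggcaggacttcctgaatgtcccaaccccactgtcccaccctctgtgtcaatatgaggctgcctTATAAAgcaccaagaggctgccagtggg
These matches describe letters in a window and show no binding.

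Gene lists were described by counts and by the ratio of their summed level, beside 0.495% higher and 1.65% lower over all genes. Of 10 measured MHC class II genes, 4 were higher and 0 lower: HLA-DRA, HLA-DRB1 (1.68), HLA-DPA1 (1.59) and HLA-DPB1 (1.58), chains of the surface complexes that present peptides to CD4 T cells. None of these 4 calls held among the cells low in chromosome 22 described below, which hold 964 of the 1081 members: the ratios there were 1.09, 1.08, 1.01 and 1.09, and HLA-DRA was lower in 11 of 17 pairs. Over all cells the summed list was 1.42-fold higher and higher in 17 of 18 pairs. CD74, the class II invariant chain, stood at 1.45 in 18 of 18 pairs, just short of the fold. Among the cells low in chromosome 22 it stood at 1.16, higher in 14 of 17 pairs, and among the others at 1.22. CD74 lies at chr5:150401637-150412929, in a chromosome 5 region described below. HLA genes are polymorphic relatives, so their read split is uncertain. Of 16 MHC class I genes none was called, though all 16 ratios lay over 1 (HLA-B 1.29, B2M 1.08). Of 28 antiviral effectors 3 were higher (RSAD2, HERC5 and OASL, a 2'-5' oligoadenylate synthetase relative, at 1.53) and 0 lower. The interferon transcription factors had no call among 14, with IRF1 at 1.10. Of 15 GBP, chemokine and IDO1 genes, CCL2, a monocyte attractant, was higher (2.17, in 14 of 18 pairs), and IDO1 stood at 0.997 and GBP1 at 0.976.

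Adhesion, S100 and glycolysis lists lay below 1, each with 2 genes called lower, where 1.65% of all genes were lower. Of 19 measured epithelial adhesion genes 2 were lower, the tetraspanin CD9 (0.664) and the desmosomal cadherin DSC2 (0.653). In all 17 of the 19 ratios lay under 1, and the summed list was at 0.811 and lower in 18 of 18 pairs. EPCAM, the epithelial adhesion molecule, was at 0.762 in 18 of 18. Among the cells low in chromosome 22, EPCAM stood at 0.899 (lower in 11 of 17 pairs) and CD9 at 0.775 (16 of 17). The mesenchymal list was lower as well, with a summed ratio of 0.863 in 18 of 18 pairs, 0 of 10 called and VIM, vimentin, at 0.833. S100 and annexin genes had 2 of 15 lower, S100P and the galectin LGALS1 (0.496), with a summed ratio of 0.794. Among the integrins, the collagen-binding chain ITGA2 was lower, at 0.570. Hypoxia and glycolysis genes had 2 of 16 lower, EGLN3, an oxygen-sensing hydroxylase (0.538), and NDRG1 (0.601), with LDHA at 0.789. Among the cells low in chromosome 22, EGLN3 stood at 0.877 (lower in 10 of 17 pairs) and LDHA at 0.924 (14 of 17). Epithelial transcription factors had 2 of 15 lower, FOXA2 (0.426) and SOX4 (0.573), while ID1 was at 1.10.

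Cycle lists lay near 1 when pooled over pairs. No S phase gene among 34 and 1 G2/M gene among 38 was called (GTSE1, lower, 0.600), and the summed lists stood at 1.04 and 0.962. By pair the S phase list ran from 0.825 to 1.21 (14 pairs higher, 4 lower). The G2/M list ran from 0.646 to 1.63 (8 pairs higher, 10 lower). Among stress genes DDIT3, a factor of the unfolded protein response, was higher (1.62) while XBP1 (0.542) and SDF2L1 (0.634), also of that response, were lower, out of 15. Of 5 Wnt and Notch genes measured, HES4, a Notch target, was higher (1.55). Among the cells low in chromosome 22, DDIT3 stood at 1.12 (higher in 9 of 17 pairs) and HES4 at 1.34 (15 of 17). Of 16 NRF2 and ferroptosis genes, AKR1C1, an aldo-keto reductase, was lower (0.547). The actin list had 1 of 25 lower, the myosin MYH9 (0.579). Among genes leading the variation of the whole data set, FABP4 was lower and NNMT, a nicotinamide methyltransferase, higher (1.60), out of 9. No gene was called among 16 YAP targets, 9 retinoid and AhR targets, 9 histones, 9 growth arrest, 12 immediate early, 10 EGFR-related, 14 NF-kB, 16 cholesterol, 11 heat shock, 13 mitochondrial and 12 housekeeping genes.

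Genes most like KRT19 across single cells were found by the rank correlation within pairs after thinning (median over 18 pairs, 7431 genes). LGALS1 was most alike (rho 0.46), followed by the cytokine MIF (0.39), the calcium-binding S100A6 (0.35), MT1E (0.34) and the mitochondrial protein TSPO (0.30). The least alike were the ribosomal RPS14 (-0.30) and RPL35A (-0.28), HINT1 (-0.27), the ferritin light chain FTL (-0.25) and SAA1 (-0.21). The cells share library and depth in this measure, and it is a description.

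Of these like genes LGALS1, MIF and TSPO lie on chromosome 22, as do WNT7B, MYH9, XBP1, SDF2L1 and GTSE1. Chromosome 22 held 70 of the 157 lower genes (44.6%), although it held 227 of the genes compared. Its median log2 ratio was -0.48, and 218 of its 227 genes had a ratio under 1. On all other chromosomes 87 of 9264 genes were lower (0.939%), against 30.8% on chromosome 22. The other 9 had a ratio over 1, and of these 1 was called, the selenoprotein SELENOM, higher (1.66) in 18 of 18 pairs. The long arm end of chromosome 5, from 100 Mb on, had a median log2 ratio of 0.25, with 248 of 266 genes over 1, and the part before 100 Mb had 0.06. Chromosome 3 from 160 Mb on had 0.24, with 103 of 115 genes over 1, and 0.00 before. Of the genes least like KRT19, RPS14 and HINT1 lie on chromosome 5 past 100 Mb, and RPL35A lies on chromosome 3 past 160 Mb. The 2 bounds were set after the values were seen. Apart from these 3 chromosomes, medians ran from -0.01 to 0.08, the highest on chromosome 16, and chromosome 17, which carries KRT19, had 0.03.

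**Figure D3:**
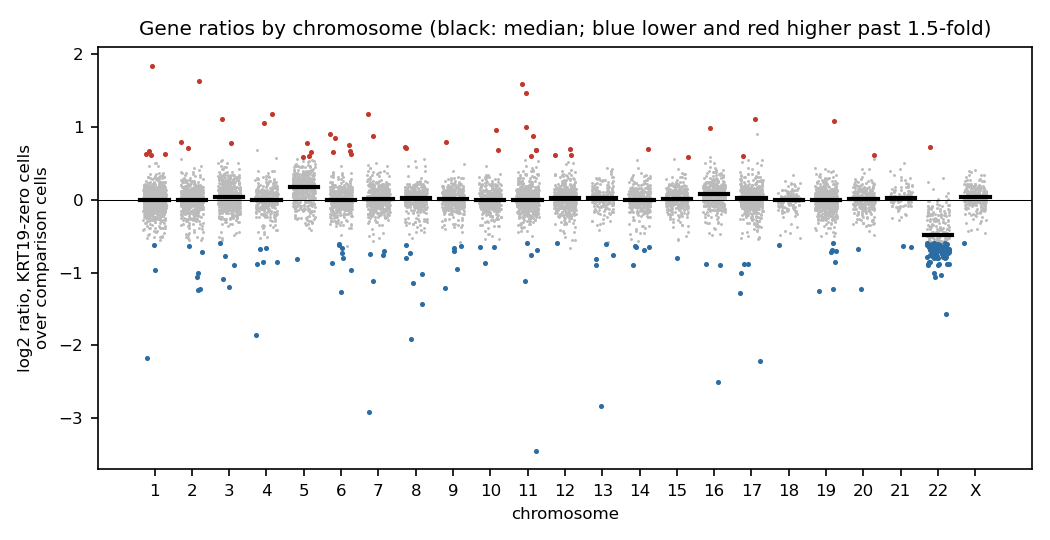
Log2 ratio of each gene, KRT19-zero over comparison cells (y axis), by chromosome (x axis), with the chromosome median as a black bar and called genes in blue (lower) or red (higher). The median of chromosome 22 lies at -0.48 and that of chromosome 5 at 0.18, with the other chromosomes between -0.01 and 0.08.

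KRT19's own neighbourhood was not lower as a whole. Within 20 gene places on each side of it, 6 genes were measured and 0 called, among them EIF1 (1.02) and JUP, a junction protein (0.744). Within 2 Mb on each side 68 genes were measured, with a median log2 ratio of 0.01, and 3 were lower (4.41%, against 1.65% of all genes): TNS4, KRT20 and KRT23.

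Single cells fell into 2 groups by the share of their non-mitochondrial UMIs from chromosome 22 (leaving out LGALS1, MIF and KRT19). The most filled bins lay at 1.25% and 1.95%, and the emptiest bin between them, at 1.55%, held 77 cells of 5842 and was taken as the dividing value after the data were seen. Of all cells 190 lay within 0.1 percentage points of it, 24 of them members and 75 comparison cells. Under it lay 3400 of 5842 cells (58.2%), and 52.6 to 62.2% of each pair, so both groups occurred in every pair. DNA copy number was not measured.

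Of KRT19-zero cells 89.2% lay under that value (interval 87.2 to 91.0%), against 33.3% of comparison cells (31.3 to 35.4%). By pair the range was 82.9 to 97.9% in members and 17.8 to 43.2% in comparison cells, with no overlap. The share declined over the classes of KRT19 count, from 89.2% at 0 UMIs to 78.1% at 1 to 3, 53.7% at 4 to 9, 38.0% at 10 to 19 and 26.0% at 20 or more. Seen the other way, 21.01 to 38.2% of the cells under the value were KRT19-zero per pair, against 0.775 to 9.03% of those over it, and the former was the higher in 18 of 18 pairs. Comparison cells were thus present in both groups, with 696 under and 1394 over, and 117 members lay over.

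**Figure D4:**
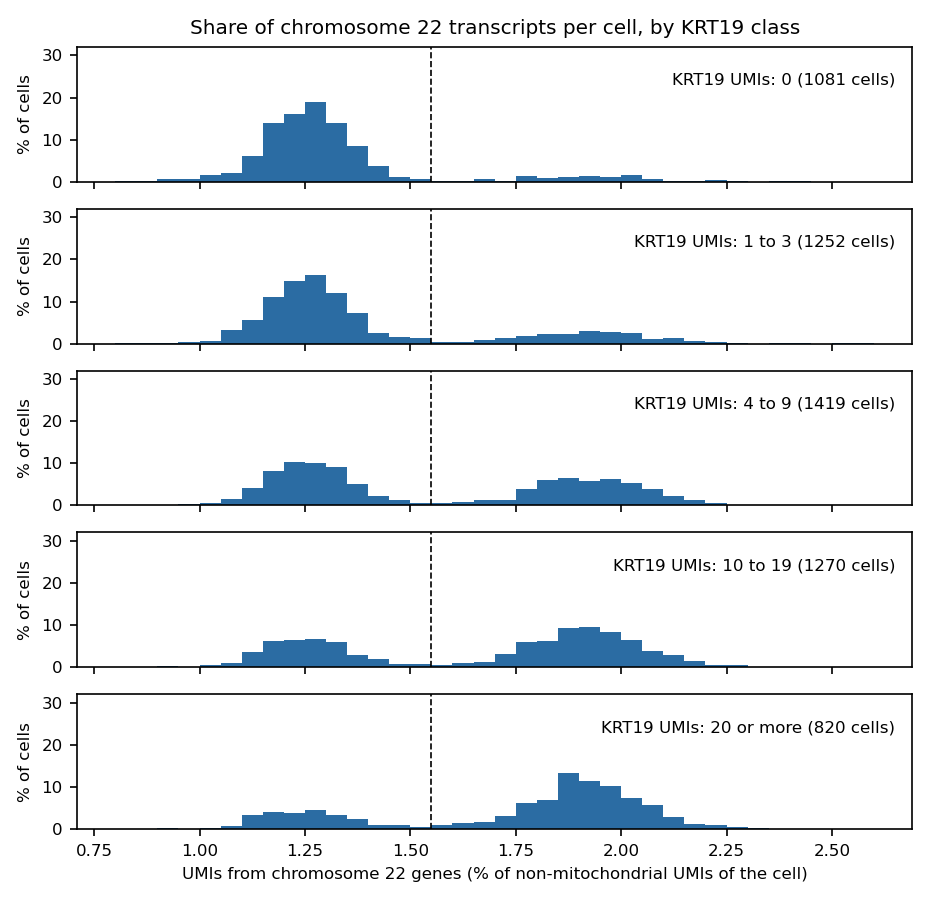
Distribution over cells of the share of non-mitochondrial UMIs that come from chromosome 22 (x axis, %; y axis, % of the cells of the class) for 5 classes of KRT19 UMI count, from 0 (top) to 20 or more (bottom). The dashed line marks 1.55%; 89.2% of KRT19-zero cells and 26.0% of cells with 20 or more UMIs lie below it.

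The regions of chromosomes 5 and 3 varied with it. Within pairs the shares of chromosome 22 and of chromosome 5 from 100 Mb had a median rank correlation of -0.61, those of chromosome 5 and chromosome 3 from 160 Mb 0.73, and those of chromosomes 22 and 1, for comparison, 0.18. Shares of a fixed total constrain each other, and these values are descriptions. Chromosome 5 from 100 Mb was divided at 3.725%, the emptiest bin between the most filled ones, drawn from these same cells. Of members 78.5% were low in chromosome 22 and high in chromosome 5 together, against 25.1% of comparison cells. A chromosome 16 share of at least 5% was found in 123 members (11.4%, interval 9.55 to 13.4%) and in 2.25% of comparison cells (1.66 to 2.98%). No rule set that 5% value beforehand.

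Compared only among cells under the dividing value, the lists of called genes became short. Over all 18 pairs these cells held 964 members and 696 comparison cells. The comparison used the 17 pairs with at least 10 of each, leaving out pair 2+5 (31 members and 8 comparison cells). Of 7895 genes 6 were higher (0.076%) and 8 lower (0.101%), with at least 13 of 17 pairs in one direction. The median log2 ratio of chromosome 22 was then -0.01. Members and comparison cells were both chosen here by their chromosome 22 share, so this value follows largely from the selection. Higher were SAA1 (2.03), CXCL10, a T cell attractant (2.01), VCAM1 (1.81), CCL2 (1.80), SAA2 (1.76) and CFI (1.65), and 5 of these 6 were also called over all cells. CXCL10 was the exception, at 1.17 over all cells. Lower were KRT20 (0.491), MAL2, a protein of apical transport (0.551), PSCA (0.565), MT1E (0.568), SDR16C5 (0.616), the lipase MGLL (0.651), AHNAK2 (0.657) and the trypsinogen PRSS3 (0.666), and 6 of the 8 were called over all cells. MUC5AC and AGR2 had ratios of 0.2996 (0.206 to 0.437) and 0.233 (0.169 to 0.320) there, on too few UMIs for a call. All 24 leading genes lay nearer 1 on the log scale than over all cells: CLDN11 stood at 1.31, JAM3 at 1.10, CPA4 at 1.02 and HLA-DRA at 1.09. FABP4 crossed to 1.17, CAVIN2 to 1.23 and PDE1C to 0.838. LGALS1 stood at 0.831. RPS14, HINT1 and RPL35A, at 1.19, 1.22 and 1.21 over all cells, stood at 1.04, 1.04 and 1.06.

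Among cells over the dividing value the 117 members were compared with 1394 comparison cells, too few for calls. SAA1 stood at 2.24 (2.03 to 2.47), CFI at 2.83 (2.26 to 3.54), MUC5AC at 0.381 (0.295 to 0.494) and KRT20 at 0.604 (0.533 to 0.685), in the same direction as under it. AGR2 stood at 0.685 (0.580 to 0.809), against 0.233 under it. RSAD2, at 0.967 (0.584 to 1.60), and HERC5, at 0.765 (0.487 to 1.20), were not higher here, against 1.64 and 1.80 under it. CAVIN2 stood at 1.10 (0.848 to 1.43). CPA4 stood at 3.28 (2.17 to 4.95), FABP4 at 0.495 (0.444 to 0.551) and S100P at 1.23 (1.09 to 1.40), where cells under the value had 1.02, 1.17 and 0.558. Of the 24 leading genes 18 lay nearer 1 than over all cells and 6, all among the higher genes, lay further from it. These were PDE1C at 3.16 (2.23 to 4.48, against 1.84 over all cells), AL713998.1 at 2.63, JAM3 at 2.39 and CLDN11 at 2.20, besides CPA4 and CFI. HLA-DRA stood at 1.56, HLA-DRB1 at 1.68, HLA-DPA1 at 1.53 and HLA-DPB1 at 1.26. The difference between the 2 classes was not tested. Between the classes the comparison cells themselves differed in level, with MUC5AC at 5.19 CPM under and 51.1 CPM over the value, S100P at 12.5 and 72.4 CPM, and SAA1 at 108 and 51.2 CPM.

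**Figure D5:**
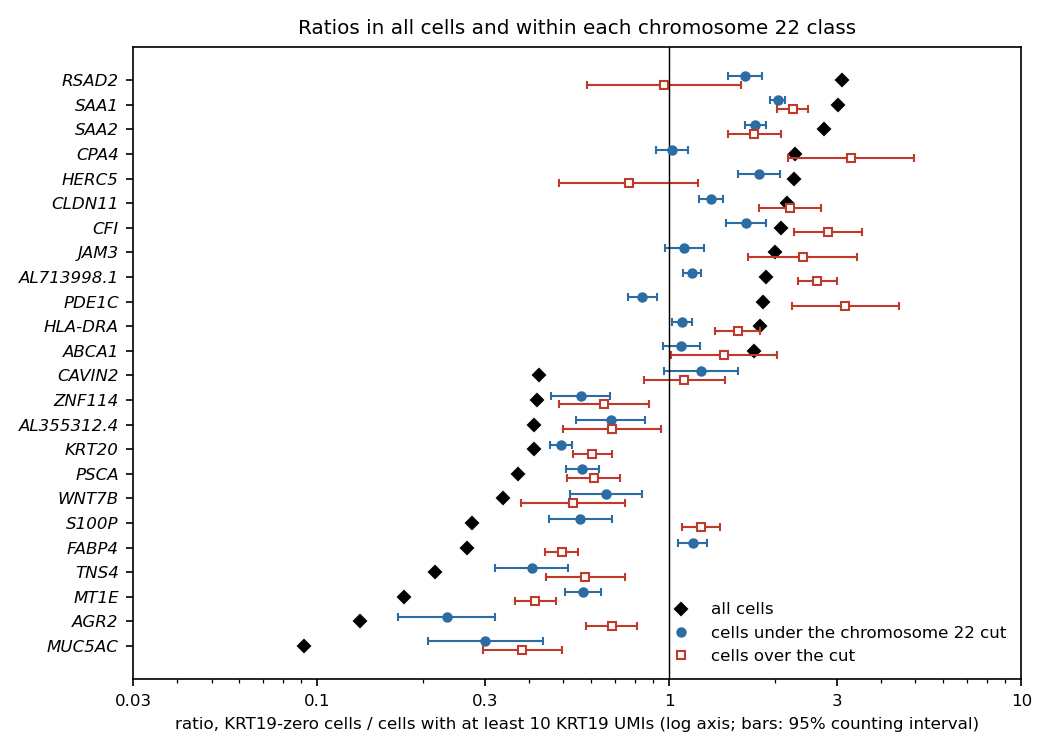
Ratio of KRT19-zero to comparison cells (log x axis) for the 24 leading genes (y axis) over all cells (black diamonds), in cells under 1.55% of chromosome 22 UMIs (blue circles) and in cells over it (open red squares), with 95% counting intervals. All 24 genes lie nearer 1 in the cells under it than over all cells, as do 18 in the cells over it, where PDE1C lies at 3.16; SAA1 stands at 2.03 and 2.24.

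Cells that the rule did not use showed the same directions for most genes. Cells with 1 to 3 KRT19 UMIs (1252 cells) were set against cells with 6 to 9 (876 cells) in the same pairs. The genes were called in this same library, and these cells are again ordered by KRT19 count, so the agreement is no separate support. In this contrast the median log2 ratio of chromosome 22, which held 70 of the 157 lower genes, was -0.19. Of the 157 lower genes 154 had a ratio under 1, as had 43.7% of all genes, with a median ratio of 0.787. Of the 47 higher genes all 47 were over 1, as were 56.3% of all genes, with a median of 1.26. Between the compared classes, whose own values chose the genes, MUC5AC had a mean over pairs of 8.74 CPM at 1 to 3 and 16.8 CPM at 4 to 9 KRT19 UMIs, and SAA1 of 191 and 137 CPM. Cells without a hashtag pair gave 72 with 0 and 526 with at least 10 KRT19 UMIs, at median depths of 29444 and 56627 UMIs. In these 145 of the 157 lower genes were under 1 (48.7% of all genes) and 43 of the 47 higher genes were over 1 (51.3%), with AGR2 at 0.230 and SAA1 at 1.70, whereas RSAD2 stood at 0.834 and CFI at 0.729. This contrast had 1 stratum, so, unlike the ratios within pairs, it does not keep the response level out. Paired cells had a median of 30100.5 UMIs.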

How the data were processed

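Transcripts and hashtags of 1 pool were used, as raw UMI counts per gene and hashtag in each barcode, deposited by the authors without normalization. The file header names Cell Ranger 5.0.1, the submitters' processing notes Cell Ranger 2.1.1 and GRCh38; which applies was not resolved. Single cell 3′ libraries were made, per the labels' protocols. Cells were summed per pair and class with Python 3.11.15, numpy 2.4.6, scipy 1.17.1 and pandas 2.3.3, and rate ratios were pooled over pairs with Greenland-Robins counting intervals at 95%. The scripts were tested on simulated data. Members, lists and rules were chosen with earlier results of these data known. Named were the 12 genes with the largest called ratio in each direction with at least 1000 UMIs, up to 4 highest members per list of 37 lists, all measured keratins, and the 5 genes most and least like KRT19; called members of lists and others were added after their values were seen. Some genes are not reported here. Members' UMIs summed to 1110127 to 3030932 per pair, and comparison cells' to 1554913 to 7441356. The pair rule removes many doublets, doublets within a pair cannot be seen, no doublet caller was run, and free RNA was not subtracted; 0 barcodes were listed more than once. Gene positions came from GENCODE 29 (9484 of 9491 genes matched by identifier) and promoters from RefSeq. Alternatives covered depth, thinning, cycle level, thresholds, filters and left-out pairs.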

Additional observations from a re-analysis of the deposited data

Results flagged for a closer look

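Cells without a hashtag pair, which the comparison does not use, carried SAA1 and AGR2 above the 1.23 CPM that a count of 0 allows. SAA1 stood at 205 CPM in the 72 KRT19-zero cells among them and at 121 CPM in the 526 cells with at least 10 KRT19 UMIs (ratio 1.70, counting interval 1.54 to 1.86). AGR2 stood at 8.62 CPM and 37.4 CPM (ratio 0.230, 0.1496 to 0.355). RSAD2 and CFI, called higher within pairs, had ratios under 1 in these cells, as given above. Median depths differed between these cells, at 29444 and 56627 UMIs. They were compared as 1 stratum, so the response level enters these ratios. The part of depth, of response level and of barcodes holding more than 1 cell was not tested.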

How the results depend on the processing

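Leaving out each hashtag pair in turn gave 44 to 50 higher and 147 to 163 lower genes, and all 24 leading genes kept their call each time. Counts of higher and lower genes changed to 25 and 88 with each cell thinned to 10000 UMIs (20 and 68 shared with the 47 and 157 of the report), to 21 and 76 against all cells with at least 1 KRT19 UMI, to 14 and 76 at no more than 10% MT- UMIs, to 140 and 278 with a minimum of 100 UMIs per gene, to 18 and 69 with 2000 UMIs, and to 10 and 28 at 2-fold. With the KRT81, LDHB and S100A9 high cells kept, 268 genes were lower. The 100, 2000 and 2-fold settings change which genes can be called by construction, and thinning lowers the UMIs per gene. The KRT81, LDHB and S100A9 high cells held at least 9 KRT19 UMIs (median 43), so keeping them added no members. How far this accounts for the counts, and the cause for the other settings, was not tested. Strata of pair and chromosome 22 class, chosen after the data were seen, gave 8 higher and 22 lower genes (5 and 20 shared). CAVIN2 then stood at 1.00 and PDE1C at 0.897, the latter in the other direction. For PDE1C this pools 0.838 in the chromosome 22 low class with 3.16 in the high class. This setting kept pair 2+5, which the comparison among chromosome 22 low cells, with CAVIN2 at 1.23, left out. The log2 ratio of summed lists moved there to -0.18 for epithelial adhesion, -0.074 for actin, -0.011 for YAP targets, 0.10 for retinoid and AhR targets, -0.19 for S100 and annexin genes, 0.18 for MHC class II and 0.10 for the leading variable genes. Without the tenth of cells highest in antiviral effectors in each pair, also chosen after the data were seen, RSAD2, HERC5 and HLA-DRA lost their call. The share of KRT19-zero cells was 31.96% thinned and 19.6% at no more than 10% MT- UMIs. No paired analysis was possible because the pool is 1 sample: hashtag pairs are strata within it, not replicate samples, and no test was made.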

Other observations

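Shares of KRT19-zero cells fell into 2 ranges over the 18 hashtag pairs, which carry no condition labels. They were 13.9% in pair 1+3, 14.6% in 1+5, 14.9% in 1+2, 15.3% in 1+4, 15.4% in 5+7, 15.4% in 2+4, 15.6% in 3+5 and 15.6% in 1+6. In the other 10 pairs they were 18.5% in 5+8, 20% in 5+6, 20.2% in 3+7, 21.1% in 3+4, 21.2% in 4+7, 21.3% in 2+8, 21.3% in 2+6, 21.5% in 6+8, 22.7% in 2+5 and 24.6% in 7+8. The ranges were drawn after the shares were seen. Intervals of single pairs overlap between them, such as 11.6 to 20.3% in 1+6 and 14.3 to 23.2% in 5+8. HLA-DRA, a class II gene that IFNγ induces, stood at 3.17 to 5.26 CPM in the first 8 and at 18.4 to 262 CPM in the other 10. IRF1, an early IFNγ target, did not split the pairs the same way: it stood at 1340 to 1382 CPM in pairs 1+3, 1+4 and 1+6, which lie among the first 8, at 44.3 to 71.9 CPM in the remaining 5 of these, and at 816 to 1080 CPM in the other 10 pairs. All of these levels are over all cells of a pair.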
